A study of Mus musculus with 8 samples.

Results

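The chromosomal neighbourhood of Nfat5 was described in accessible-chromatin maps of mouse macrophages that carry or lack this gene. The members are the merged peak regions on chromosome 8 between positions 97293435 and 117379517 of GRCm38, which is the Nfat5 gene body (chr8:107293435-107379517) with 10 Mb on either side. Peaks of all 8 libraries were merged where they shared at least 1 base, and 571 of the 87260 merged regions (0.654%) lay in this window. The rest of chromosome 8 held 3399 regions and the other chromosomes held 83290. The choice of members used position only, no measured value.

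Bone marrow cells of wild-type (WT) mice and of mice deficient in NFAT5 (Nfat5 KO) were grown into macrophages for 7 days in medium of which 25% had been conditioned by L929 cells, mouse fibroblasts that release the growth factor M-CSF. Cells of each genotype were left untreated or exposed for 2 h to 0.3 ng/ml lipopolysaccharide of Escherichia coli (LPS, a bacterial outer-membrane component), which gave 4 groups of 2 libraries. The sources used here do not give the mouse strain, the age, the knockout allele, the deleted part of the gene or the cells in which it was deleted. The series' design text calls the 2 libraries of a group biological replicates, but the labels do not say whether they came from separate animals or cultures, so p-values measure only the spread between these libraries.

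NFAT5 is a transcription factor of the Rel homology family that drives genes of the response to high salt and also takes part in macrophage responses to microbial products. ATAC-seq uses a transposase that inserts sequencing adapters into open chromatin, and a peak marks a stretch with many insertions, often a promoter or an enhancer. The window holds housekeeping genes, the cadherin genes Cdh1, Cdh3 and Cdh5, the carboxylesterase cluster, and genes of transcription factors such as Ctcf, Cbfb, Zfhx3 and Maf, the last of which helps to set macrophage identity.

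The 5 sequences below were chosen because they show where the results lie: the promoter of Nfat5, the part of the Wwp2 region absent from every KO list for which letters were at hand, and 3 promoters whose peaks were narrower or missing in KO libraries. They are GRCm38.p6 letters of RefSeq, 5′ to 3′ along the gene, and stop where an annotated gene body begins. The exception is the Wwp2 stretch, which lies inside the Wwp2 gene body and was cut at the border of its region. Capitals mark bases that lay inside the peaks of all 4 WT libraries and outside the peak of at least 1 KO library. Of the Nfat5 promoter at chr8:107293220-107293434 (plus strand), all 215 bases lay inside the peaks of all 8 libraries, so it has no capitals. The other stretches are Cyb5b at chr8:107150411-107150660 (plus), the start of the predicted gene Gm39241 inside Wwp2 at chr8:107449294-107449529 (minus), Edc4 at chr8:105880631-105880872 (plus) and Tk2 at chr8:104248593-104248808 (minus).
Nfat5: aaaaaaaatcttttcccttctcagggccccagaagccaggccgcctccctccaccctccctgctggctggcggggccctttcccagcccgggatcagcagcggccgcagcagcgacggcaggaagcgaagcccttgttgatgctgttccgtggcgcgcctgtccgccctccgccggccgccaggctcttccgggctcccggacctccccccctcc
Cyb5b: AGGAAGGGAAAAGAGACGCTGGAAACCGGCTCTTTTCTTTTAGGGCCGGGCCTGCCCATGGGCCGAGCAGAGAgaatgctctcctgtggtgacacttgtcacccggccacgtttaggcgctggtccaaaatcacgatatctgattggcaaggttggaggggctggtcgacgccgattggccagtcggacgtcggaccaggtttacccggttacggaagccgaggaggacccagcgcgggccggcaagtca
Wwp2 region: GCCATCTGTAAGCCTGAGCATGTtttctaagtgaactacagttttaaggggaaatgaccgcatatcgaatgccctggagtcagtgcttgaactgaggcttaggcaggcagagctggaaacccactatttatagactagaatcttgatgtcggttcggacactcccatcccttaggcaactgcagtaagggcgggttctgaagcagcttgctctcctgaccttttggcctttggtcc
Edc4: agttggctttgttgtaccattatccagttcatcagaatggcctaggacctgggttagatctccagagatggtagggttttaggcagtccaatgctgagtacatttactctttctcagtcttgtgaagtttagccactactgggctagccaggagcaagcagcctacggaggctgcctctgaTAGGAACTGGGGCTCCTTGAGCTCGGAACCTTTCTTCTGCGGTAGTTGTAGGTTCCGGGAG
Tk2: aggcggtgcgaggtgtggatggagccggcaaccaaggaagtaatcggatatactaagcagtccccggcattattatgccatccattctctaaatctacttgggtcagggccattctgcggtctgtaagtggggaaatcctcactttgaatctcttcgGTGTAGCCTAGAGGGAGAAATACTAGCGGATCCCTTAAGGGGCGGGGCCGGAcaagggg

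The capitals covered 73 of 250 bases in Cyb5b, 23 of 236 in the Wwp2 region, 61 of 242 in Edc4 and 52 of 216 in Tk2. At Edc4 the KO libraries with LPS had no peak, so its capitals mark only the overlap of the WT peaks. Of its 242 bases, 239 lay inside the peak of at least 1 KO library. The letters TGGAAA, the core of the element that NFAT5 binds, were found on the printed strand at bases 20 to 25 of the Cyb5b stretch, inside its capitals, and at bases 114 to 119 of the Wwp2 stretch. All 250 bases of the Cyb5b stretch, its capitals included, lay inside the peak of at least 1 KO library. TGGAAA was found on neither strand of the Nfat5, Edc4 and Tk2 stretches. In the RefSeq promoter table (250 bases before to 50 after each start, both strands searched) TGGAAA was present in 21.4% of 32851 promoters and in 56 of the 243 promoters of the window (23.0%). Among window promoters overlapped by a region called in all 8 libraries, 17 of 103 held it (16.5%), and among those overlapped by no region, 36 of 131 (27.5%). The Sp1 box GGGCGG, a GC-rich element of many housekeeping promoters, went the other way, with 72 of 103 (69.9%) and 23 of 131 (17.6%). Other motifs searched also had the lower share at promoters called in all 8 libraries: the CCAAT box (35.9% and 51.1%) and the AP-1 element TGANTCA (3.88% and 6.87%). The PU.1 core GAGGAA had similar shares (30.1% and 29.8%). A match is a description of letters and was not tested as a binding site.

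The deposited lists held between 54027 and 60117 peaks per library, and each gave positions only, with no score or read count. Depth is unknown, a call means that a library's list has a peak in the region, and a missing call does not show closed chromatin. All 10 macrophage marker genes examined, among them Csf1r, Spi1 and Adgre1, had a peak within 1 kb of a gene end in all 8 libraries. Of 23 markers of other cell types, 3 had one in all 8 libraries (Ms4a1 of B cells, S100a8 of neutrophils and Klf1 of erythroid cells), Col1a1 of fibroblasts in 7, Cd4 in 2, Ly6g in 1 and the remaining 17 in none. The part of other cell types in the results was not tested.

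Every library called 260 of the 571 window regions (45.5%), and 83 (14.5%) had a call from one library alone. On the rest of chromosome 8 these shares were 42.0% and 19.4%. By position, 299 window regions lay inside a protein-coding gene body, 91 overlapped a gene end and 181 lay outside genes. Promoter windows were overlapped by 77 of the 260 regions called in all 8 libraries (29.6%) and by 1 of the 83 called in one library. The most regions were assigned to Zfhx3, a large zinc-finger homeobox gene (48), to Wwox, which encodes an oxidoreductase with WW domains (37), and to Cmip (21). At the lower border, the region just inside (chr8:98844814-98845694, 179 kb from the cadherin gene Cdh8) was called in 2 WT and 2 KO libraries, and the one just outside (chr8:97272889-97273074) in 1 KO library. At the upper border both nearest regions lay inside Cmip: the inner one (chr8:117371367-117371541) was called in 2 WT libraries and the outer one (chr8:117405259-117405531) in 2 KO libraries.

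At Nfat5 itself, 7 regions were assigned to the gene and 4 of them were called in all 8 libraries, KO included. The promoter region (chr8:107292751-107293816) had WT peaks of 1066 and 795 bases untreated and of 486 and 746 with LPS. Its KO peaks were 963 and 897 bases untreated and 454 and 551 with LPS. The genotypes overlapped, with means of 773 ± 238 bases in WT and 716 ± 251 in KO (SD, n = 4). The LPS libraries (454 to 746 bases) all lay below the untreated ones (795 to 1066), in both genotypes. Narrower peaks with LPS were general. By mean log2 width, 70.8% of the window regions called in all 8 libraries were narrower with LPS. The share was 73.4% on the rest of chromosome 8 and 72.8% over all such regions. A region 23.4 kb upstream (chr8:107269256-107270045) was nearly constant, between 698 and 754 bases in the 8 libraries.

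The gene body of Nfat5 held 1 region, chr8:107329619-107329854. Its peaks were 192 and 236 bases wide in untreated KO and 203 bases in the second KO library with LPS, and no WT library called it. Its place relative to exons or to the deleted part was not analysed here. The 2 other Nfat5 regions (chr8:107255098-107255412 and chr8:107263992-107264168) were each called in 1 KO library.

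**Figure D1:**
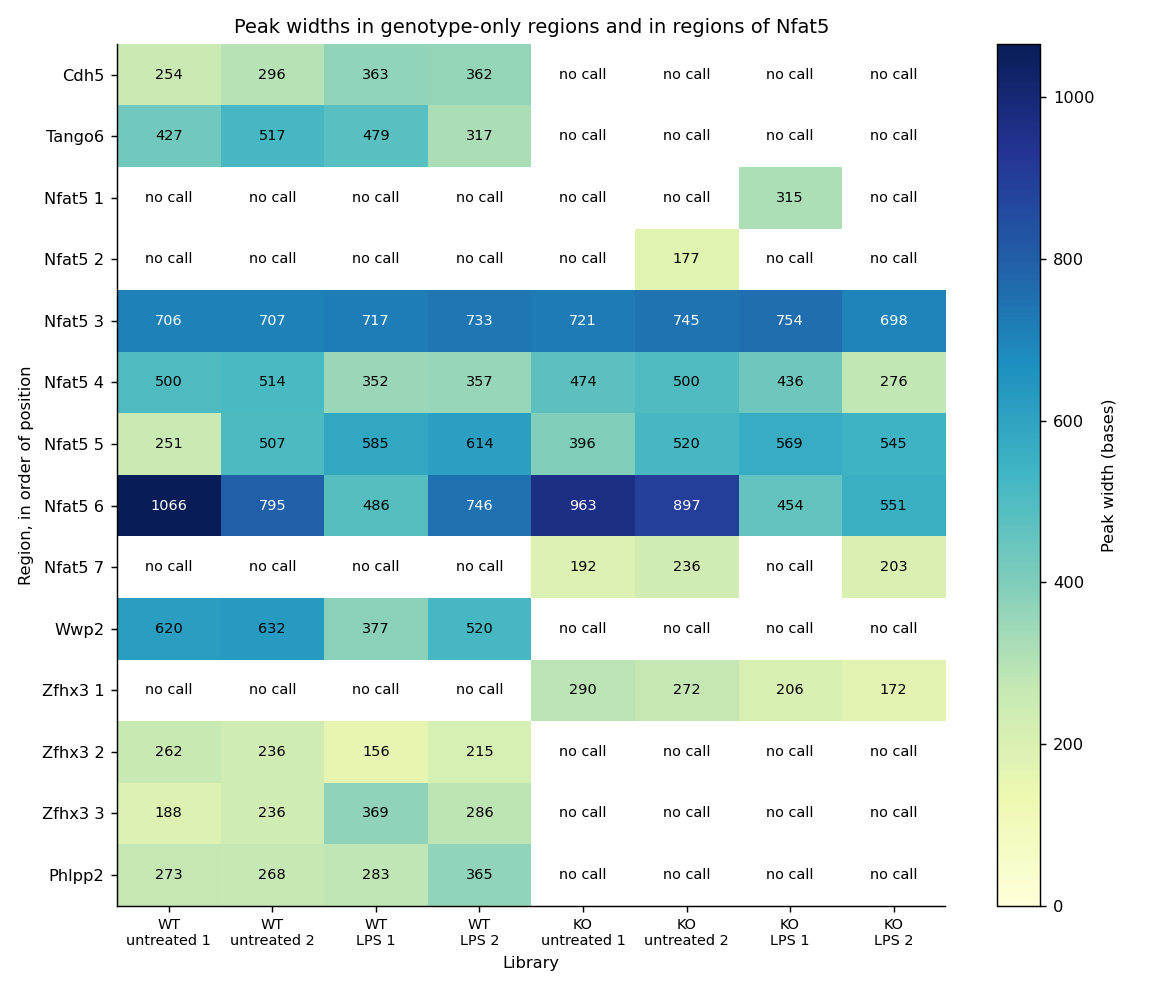
Peak width in bases (colour and number) in each of the 8 libraries, for the regions called in all 4 libraries of one genotype and none of the other and for the 7 regions of Nfat5, in order of position. The regions of Cdh5, Tango6, Wwp2 and Phlpp2 and those labelled Zfhx3 2 and 3 have WT peaks alone, Zfhx3 1 has KO peaks alone, and Nfat5 3 to 6 have a peak in every library.

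Among the neighbours of Nfat5, regions at gene ends were called in all 8 libraries for Nqo1 (a quinone reductase of the antioxidant response), Cyb5b (a cytochrome of the outer mitochondrial membrane), Terf2 (a telomere-binding protein), Vps4a (an ATPase of membrane scission), Sntb2 (a syntrophin) and, further off, Nfatc3, the other NFAT gene of the window. The Nqo1 region (chr8:107402856-107403848) had WT peaks of 851 and 942 bases untreated and of 816 and 662 with LPS. Its KO peaks were 612 and 801 bases untreated and 531 and 607 with LPS, and the genotypes overlapped. Of the list of 17 genes made of Nfat5, Nfatc3 and close neighbours, 13 had regions, 52 in all, of which 24 were called in all 8 libraries. Within a treatment, 3 of these regions were called in both WT and no KO libraries and 1 in the reverse pattern, beside 35 and 11 of all 571 members, which is a similar share. Their median log2 ratio of KO to WT width was -0.05, beside -0.06 for all members called in all 8 libraries. Chtf8 and Nip7 had no region of their own under the nearest-gene rule, but regions called in all 8 libraries overlapped their promoters together with those of Utp4 (chr8:106893361-106894071) and Cog8 (chr8:107056122-107057181). Has3 (a hyaluronan synthase) and Tmed6 had no assigned region.

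Regions called in all 4 WT and no KO libraries numbered 6 in the window, 1.05% of its members, beside 0.265% (9 regions) on the rest of chromosome 8, 0.225% on the other chromosomes and 0.231% of all regions. The reverse pattern, all 4 KO and no WT, was met by 1 member (0.175%), beside 0.118% on the rest of chromosome 8 and 0.147% of all regions. The WT-only share in the window was 3.97 times that on the rest of chromosome 8, and 6.09 times with a window of 5 Mb either side. Leaving out a library relaxes the rule, and the ratio then became 2.59 without the first untreated WT library, 2.18 without the first WT library with LPS and 1.66 without the second untreated KO library. For the KO-only share the ratio was 1.49, and its direction rests on single libraries. It became 0.371 without the first untreated WT library, 0.741 without the first WT library with LPS, 0.846 without the first untreated KO library, 0.838 without the second KO library with LPS and 2.54 without the first. With lists limited to their widest 27000 peaks, no window region met either rule. Regions are not replicates, and these shares carry no p-value.

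The WT-only region with the widest peaks on average (537 bases) lay in Wwp2, a HECT-type ubiquitin ligase gene, 69.8 kb past the end of Nfat5 (chr8:107449294-107449951). Its peaks were 620 and 632 bases in untreated WT and 377 and 520 with LPS. None of the 4 KO lists had a peak there, while 12 further regions were assigned to Wwp2 and 5 of those were called in all 8 libraries. One of them, chr8:107502461-107503222, ranged from 678 to 762 bases with no separation of the genotypes.

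The next by mean peak width (435 bases) lay in Tango6, whose fly ortholog was found in a screen for Golgi organisation, 472 kb before Nfat5 (chr8:106820506-106821172). Its peaks were 427 and 517 bases in untreated WT and 479 and 317 with LPS. A WT-only region lay in Phlpp2, which encodes a phosphatase of AKT, 2538 kb past Nfat5 (chr8:109917201-109917565), with 273 and 268 bases untreated and 283 and 365 with LPS. In Cdh5, the gene of the endothelial junction protein VE-cadherin, the region at chr8:104116404-104116795 had WT peaks of 254 and 296 bases untreated and 363 and 362 with LPS. It was the most distant of the 6, 3177 kb before Nfat5.

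Zfhx3 held both kinds of region within a short span. WT peaks alone were found at chr8:108820647-108820908 (262 and 236 bases untreated, 156 and 215 with LPS) and at chr8:108848498-108848866 (188 and 236 untreated, 369 and 286 with LPS). KO peaks alone were found at chr8:108780265-108780554, with 290 and 272 bases untreated and 206 and 172 with LPS. These 7 genotype-only regions were between 217 and 537 bases wide on average over the libraries that called them. All 7 lay inside gene bodies, and the Wwp2 region alone overlapped a promoter window, that of Gm39241.

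Along the window in 1 Mb steps, WT-only regions fell in steps -4, -1, 1, 2 and 3 from Nfat5, with 2 in step 2, and the KO-only region also fell in step 2. Steps -10 to -5, which hold few genes, had 0 to 4 regions each and none of these. Steps 4 to 10, with up to 75 regions each, held no genotype-only region. On the rest of chromosome 8, 8 of 104 tiles of 1 Mb held a WT-only region, with at most 2 in a tile, and 4 held a KO-only one.

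The mean number of calls over 4 libraries was higher in WT in 15 of the 20 steps with regions, higher in KO in 4 and equal in 1. Of the 12 steps with 20 or more regions, WT was higher in 11, beside 48 of 68 such tiles (70.6%) on the rest of chromosome 8. The exception was step 4, which spans Il34, Sf3b3 and Mlkl, with 29.0 ± 2.16 calls in WT and 29.2 ± 2.63 in KO (SD, n = 4). The widest gap was in step -1, next to Nfat5, where WT libraries made 44 and 37 calls untreated and 32 and 35 with LPS, and KO libraries 35 and 33 untreated and 32 and 28 with LPS. No step had every WT library above every KO library, so at the scale of 1 Mb the genotypes overlapped throughout.

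**Figure D2:**
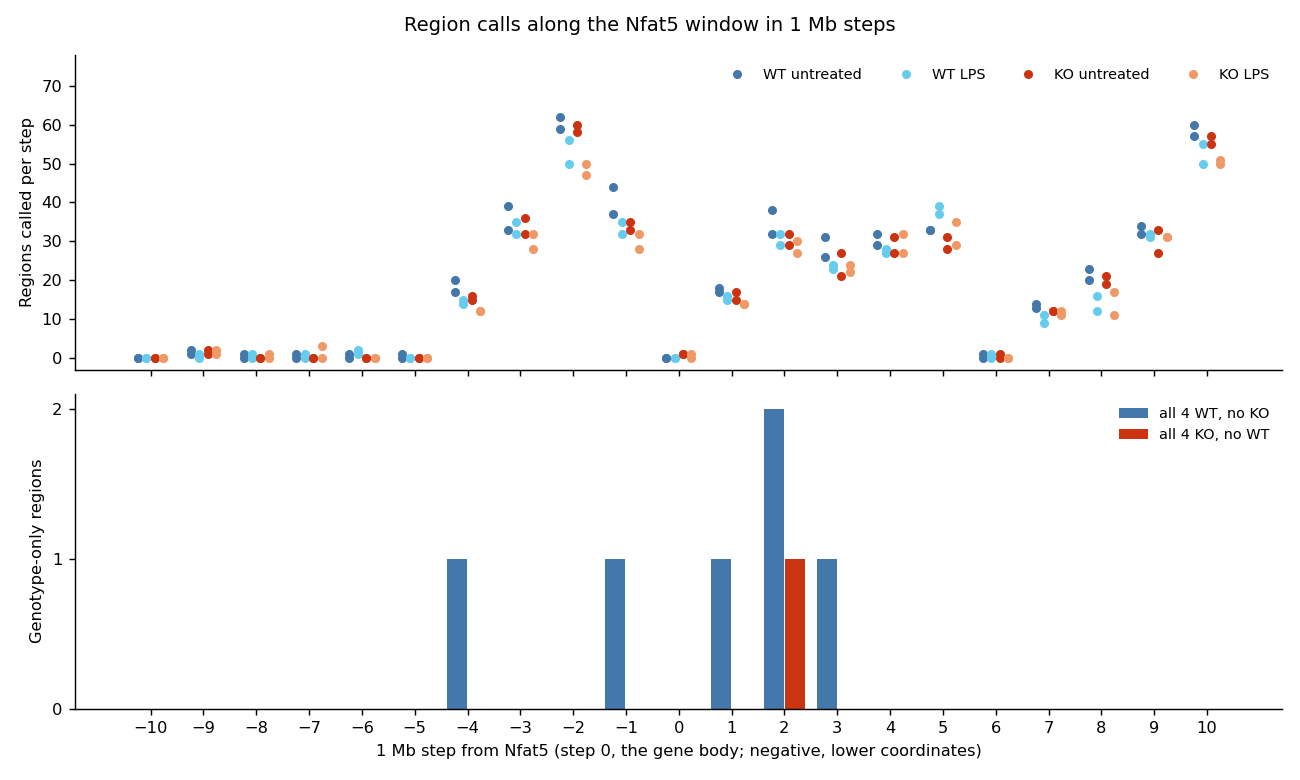
Top, number of regions called per library (points) in each 1 Mb step from Nfat5, by group. Bottom, regions called in all 4 libraries of one genotype and none of the other. The WT-only bars sit between steps -4 and 3, and the points of WT and KO overlap in every step.

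Within untreated cells, 22 window regions (3.85%) were called in both WT and no KO libraries, beside 2.18% on the rest of chromosome 8 and 2.23% of all regions. The reverse pattern was met by 5 (0.876%), beside 1.50% and 1.60%. With LPS, 19 regions (3.33%) were WT-only, beside 3.30% on the rest of chromosome 8 and 3.17% of all regions, and 7 (1.23%) were KO-only, beside 1.65% and 2.03%. The WT-only share in the window was 1.77 times that on the rest of chromosome 8 in untreated cells and 1.01 times with LPS. A comparison of 2 libraries with 2 cannot reach a small p, so the difference between treatments was not tested.

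Among the untreated WT-only regions that were not WT-only over all 8 libraries, the widest by mean peak width lay 67.4 kb from Wwox, in Znrf1 (a ubiquitin ligase gene), in Tango6 (chr8:106802726-106803059), in Phlpp2 (chr8:109904050-109904414) and in Hsd11b2, whose enzyme inactivates glucocorticoids. The Tango6 region had 331 and 324 bases in the untreated WT libraries and the Phlpp2 region 290 and 349, with no peak in the other 6. Both therefore lay in genes that also held a region called in all 4 WT and no KO libraries. In the reverse direction, Zfhx3 held a region of 627 and 405 bases in the 2 untreated KO libraries and no other (chr8:108766696-108767356), and further KO-only regions of untreated cells lay in Wwox, in Nfat5 as above and 0.132 kb from the amino acid transporter gene Slc7a6.

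With LPS, the promoter region of Edc4, which encodes a scaffold of the mRNA decapping complex, was called in all libraries except the pair of KO libraries with LPS (chr8:105880634-105881180). Its WT peaks were 369 and 383 bases untreated and 190 and 260 with LPS, and its untreated KO peaks 358 and 352. A region 50.2 kb from Cdh5 (chr8:104050874-104051410) had the same pattern, with 512 and 235, 416 and 382, and 296 and 347 bases in those groups. A region 8.1 kb from Hsd11b2 (chr8:105510098-105510651) was called in the pair of WT libraries with LPS alone, with 523 and 527 bases. So was one in Bcar1, an adhesion scaffold gene (chr8:111720113-111720460), with 341 and 288. The reverse, KO but not WT with LPS, was widest in Pmfbp1 (chr8:109454954-109455618), where untreated libraries of both genotypes also had a peak.

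**Figure D3:**
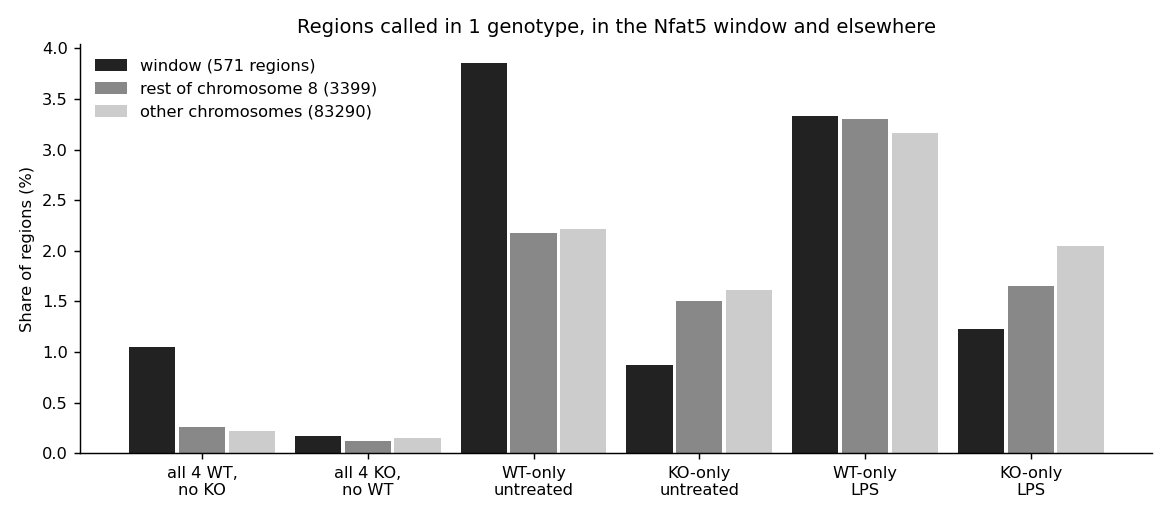
Share of regions (%) called in one genotype and not the other, over all 8 libraries and within each treatment, for the window, the rest of chromosome 8 and the other chromosomes. The window bar stands furthest above the other bars for regions with all 4 WT and no KO (1.05% against 0.265% and 0.225%) and for WT-only regions of untreated cells (3.85% against 2.18% and 2.22%).

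Widths were compared in the 260 window regions called in all 8 libraries. In 12 of them (4.62%) every KO peak was narrower than every WT peak, beside 3.37% on the rest of chromosome 8 and 2.95% of all such regions. The reverse was met by 0 of 260, which allows a share of up to 1.15%, beside 1.12% on the rest of chromosome 8 and 1.07% of all such regions. The background shares lie within that limit. The count of 12 became 25 without the first WT library with LPS and 25 without the first untreated KO library. It became 7 when a call needed a peak over at least 50% of the region, and 2 with the widest 27000 peaks per list.

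Zfhx3 held the pair with the lowest ratios. At chr8:108722357-108722970 the WT peaks were 375, 614, 238 and 561 bases (untreated, untreated, LPS, LPS) and the KO peaks 196, 205, 171 and 168, a log2 ratio of -1.18. At chr8:108759666-108760164 they were 420, 451, 306 and 416 in WT against 204, 272, 214 and 167 in KO, a log2 ratio of -0.90. The third lowest was a region in Terb1, a gene of meiotic telomere attachment (chr8:104448760-104449253), with 446, 375, 264 and 370 against 240, 203, 215 and 177 bases.

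Promoters made up 7 of the 12 narrower regions, beside 77 of the 260 window regions called in all 8 libraries (29.6%). The promoter share of narrower regions outside the window was not counted. At Tk2, the mitochondrial thymidine kinase gene (chr8:104248306-104248757), the WT peaks were 329, 390, 322 and 397 bases and the KO peaks 182, 234, 231 and 294. Of the 216 printed bases, 59 lay inside all 4 WT peaks and 7 inside all 4 KO peaks. At the promoter of the RNA helicase gene Ddx19b next to Aars, an alanyl-tRNA synthetase gene (chr8:111027362-111028174), widths averaged 629 ± 110 bases in WT and 412 ± 55.5 in KO (SD, n = 4). At Cyb5b (chr8:107150147-107150906), 143 kb before Nfat5, they were 619, 749, 599 and 591 in WT and 403, 577, 563 and 530 in KO, so the groups were separated by few bases. The other promoters were those of Atmin (a partner of the ATM kinase), of Terf2ip and Kars (a shelterin subunit and a lysyl-tRNA synthetase that share a region), of Ddx19a and of Bcar1, with log2 ratios from -0.56 to -0.14.

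**Figure D4:**
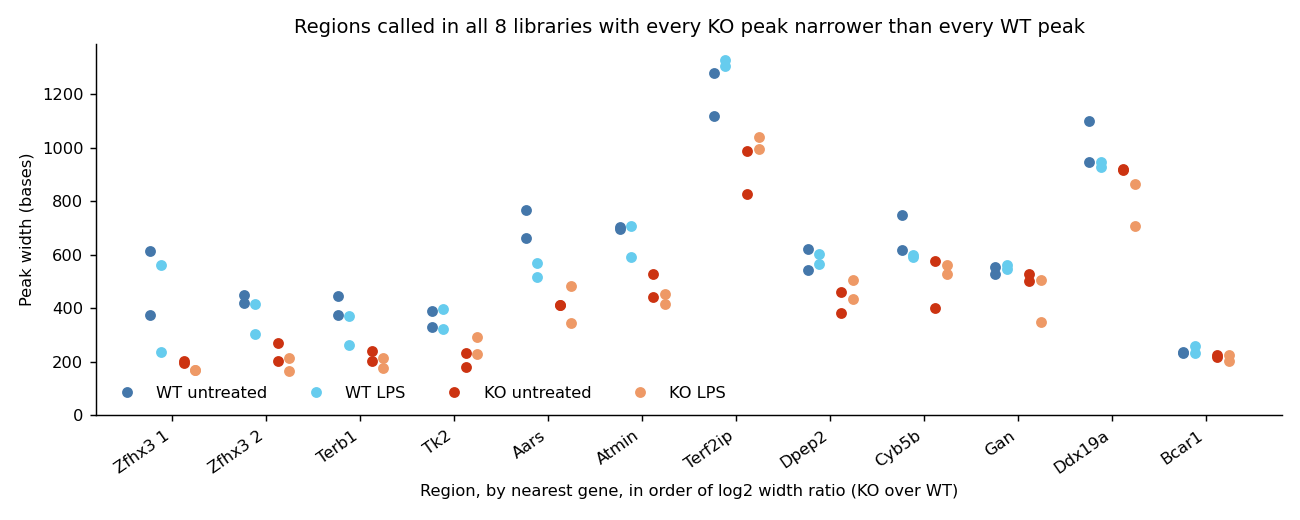
Peak width in bases per library (points) in the 12 window regions called in all 8 libraries whose KO peaks were all narrower than their WT peaks, ordered by log2 ratio and named by the nearest gene. In Zfhx3 1 the lowest WT point is 238 and the highest KO point 205 bases.

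Over all 260 regions, the median log2 ratio of KO to WT width was -0.0614 and 69.2% were narrower in KO. On the rest of chromosome 8 the values were -0.0233 and 57.0%, and on the other chromosomes -0.0289 and 57.6%. In all 13 steps with 6 or more such regions the median was below 0, from -0.141 in the step over Wwox to -0.004 in the step past Nfat5. On the rest of chromosome 8 it was below 0 in 46 of 70 tiles (65.7%).

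For a relative width, each region's log2 width in a library was taken minus its mean over the 8 libraries. Per library, the measure was the median of these values in the window minus their median on the rest of chromosome 8. A negative value does not mean that window peaks were narrower than those elsewhere. The measure was 0.0299 and 0.0396 for WT untreated and 0.0215 and 0.0413 for WT exposed to LPS. For KO it was -0.0165 and -0.0095 untreated and 0.0063 and -0.0068 after LPS. All 4 WT libraries lay above all 4 KO libraries. The KO minus WT difference was -0.0397, from 0.0331 ± 0.00924 in WT and -0.00662 ± 0.00951 in KO (SD, n = 4). Its two-sided exact permutation p was 0.0286, the smallest that 4 libraries against 4 can give, and 0.143 after Benjamini-Hochberg adjustment over 10 tests.

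The window's share of the chromosome 8 bases covered by peaks was 14.9% and 15.0% for WT untreated and 14.3% and 14.7% for WT exposed to LPS. For KO it was 14.1% in both untreated libraries and 14.3% and 14.0% after LPS. The genotypes did not overlap, although the lowest WT and the highest KO library, both with LPS, nearly met. The means were 14.7 ± 0.308% in WT and 14.1 ± 0.133% in KO (SD, n = 4), a difference of -0.615 percentage points, with an exact permutation p of 0.0286 and an adjusted p of 0.143. For the share of chromosome 8 region calls the difference was -0.479 points (exact permutation p = 0.0571, adjusted p = 0.190) and the genotypes overlapped. The number of window peaks was 414 ± 27.0 in WT and 381 ± 19.6 in KO (SD, n = 4; exact permutation p = 0.114, adjusted p = 0.229), and the median peak width in the window was 453 ± 23.2 and 447 ± 13.3 bases (exact permutation p = 0.686, adjusted p = 0.743). With the widest 27000 peaks per list the genotypes overlapped in the measures that separated them above, with differences of -0.0145 for the relative log2 width and -0.594 points for the share of bases (exact permutation p = 0.143 for each). By the exact permutation test 0 of the 10 tests (5 measures by genotype and by treatment) passed an adjusted p of 0.05, and 2 had an unadjusted p under 0.05. A measure cannot fully separate the libraries both by genotype and by treatment. At most 5 tests could thus reach 0.0286, the smallest exact permutation p, and no adjusted p could have fallen below 0.05.

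**Figure D5:**
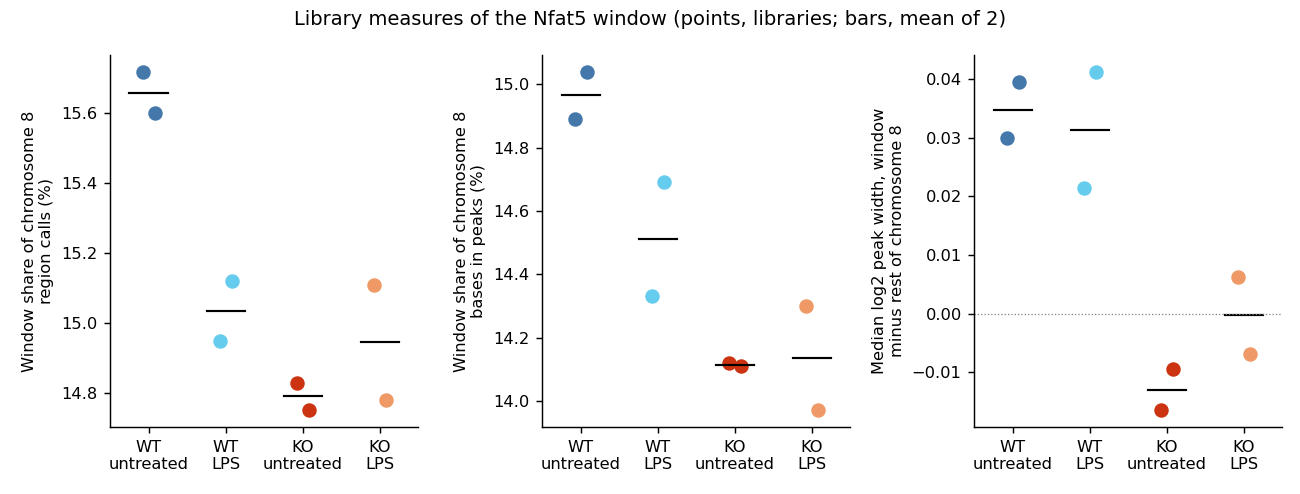
Window share of chromosome 8 region calls (%), window share of chromosome 8 bases in peaks (%), and median relative log2 peak width in the window minus the rest of chromosome 8, for each library (points) and group (bar, mean of 2). Relative widths were taken minus each region's mean over the 8 libraries. In the middle and right panels every WT point lies above every KO point.

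Regions called in all 4 LPS and no untreated libraries numbered 4 (0.701%), beside 0.883% on the rest of chromosome 8 and 1.10% of all regions, and the reverse was met by 8 (1.40%), beside 1.15% and 0.928%. In WT, 15 regions (2.63%) were gained with LPS and 35 (6.13%) lost, where 3.96% and 5.06% of all regions were. In KO, 8 (1.40%) were gained and 24 (4.20%) lost, where 2.56% and 4.07% of all regions were. The larger number of losses remained with lists cut to equal length by width. Then 4 regions were called in all 4 LPS and no untreated libraries and 7 in the reverse. In WT 18 were gained and 25 lost, and in KO 9 were gained and 19 lost. It did not remain with the widest 27000 peaks per list. There, 5 regions were called in all 4 LPS and no untreated libraries and 2 in the reverse. In WT 15 were gained and 9 lost, and in KO 11 were gained and 9 lost.

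The widest gained region lay 39.3 kb past Wwox (chr8:115391971-115392748), with 468 and 670 bases in WT and 778 and 366 in KO. A further one stood 134 kb past Wwox (chr8:115486869-115487390), with 522 and 520 bases in WT and 167 and 459 in KO. The others lay 1.58 kb from Sf3b3, a splicing factor gene that neighbours the cytokine gene Il34 (chr8:110808242-110808912, 646 and 387 bases in WT, 385 and 365 in KO), and in Znrf1 (chr8:111581433-111581863, 186 and 231 in WT, 203 and 363 in KO). Both regions named for Wwox fell in step 9, the step that also holds Maf, and neither genotype lacked them.

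Of the 8 lost regions, a pair lay in Atp6v0d1, a subunit gene of the proton pump that acidifies lysosomes. The first (chr8:105549944-105550484) had 460 and 439 bases in untreated WT and 481 and 336 in untreated KO. The second (chr8:105564701-105565465) had 683 and 233 in WT and 366 and 324 in KO. Another lay in Cdh1, the E-cadherin gene (chr8:106611081-106611507, 398 and 401 bases in WT, 308 and 378 in KO). The rest lay in Wwp2, near Cdh5, near the lysosomal phospholipase gene Pla2g15, in Cmip and in Wwox, with mean widths of 211 to 279 bases.

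By gene list, the 71 regions of 16 immune and macrophage genes held 13 regions lost with LPS in at least 1 genotype and 1 gained, 4 WT-only and 1 KO-only in at least 1 treatment, and 1 narrower in KO. Over all 571 members the same counts were 51, 19, 35, 11 and 12. Atp6v0d1 gave 3 and Cmip 4 of the 13 lost regions. The 11 regions of Maf were called 37 times in each genotype over the 4 libraries, and 7 of them were called in all 8 libraries. Ctcf, Hsf4, Zfp821, Tradd, Mlkl and Psmb10 each had 1 region, called in all 8 libraries. Il34 and Carmil2 had none assigned.

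The 30 regions of the 7 cadherin and adhesion genes held 5 that were WT-only and 1 that was KO-only in at least 1 treatment, beside 35 and 11 of all 571 members. Their mean number of WT minus KO calls per region was 0.567, beside 0.212 over all members, 0.100 on the rest of chromosome 8 and 0.0793 on the other chromosomes. Cdh5 regions were called 35 times in WT and 27 in KO libraries, and those of Cdh1 13 and 6 times. The opposite was seen at several genes, such as Cdyl2, a chromodomain gene, with 30 WT and 35 KO calls over 13 regions. Nfat5 itself had 16 WT and 21 KO calls over 7 regions. Of the 103 regions of transcription and genome organisation genes, 5 were WT-only, 4 KO-only, 6 gained, 6 lost and 3 narrower in KO. Over all 571 members the same counts were 35, 11, 19, 51 and 12. Zfhx3, with 48 of the 103 regions, gave 4, 3, 5 and 2 of the first 4 counts, which is most of each except the lost regions. Of the 53 regions of ubiquitin and membrane traffic genes, 3 were WT-only and none KO-only, where the WT-only share was near that of all members. The carboxylesterase cluster was nearly without calls: 3 of its 10 genes had regions, 6 in all, of which 1 was called in all 8 libraries.

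Libraries of one group shared 77.0% of the regions that either called in the window (75.0% to 79.6% over 4 pairs). Pairs of the other genotype and the same treatment shared 75.4%, pairs of the same genotype and other treatment 71.6%, and pairs that differed in both 69.8%. On the rest of chromosome 8 the same means were 74.4%, 72.7%, 68.8% and 67.0%, in the same order. On average, pairs that differed in treatment shared less than pairs that differed in genotype, in the window as elsewhere on the chromosome, but their ranges overlapped (68.2% to 75.0% against 74.1% to 77.2% in the window, and 66.1% to 71.2% against 70.6% to 74.7% on the rest). These pairs share libraries and were not tested.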

How the data were processed

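ATAC-seq peaks of 8 libraries (4 groups of 2, from Nfat5 KO or WT macrophages with or without LPS) were used as the authors deposited them, 1 list per library of chromosome, start and end on GRCm38 (mm10), and nothing else. The submitters' processing notes name MACS2 2.1.1, Bowtie2 2.3.0, bcl2fastq 2.17.1.14 and Picard. The sources used here do not state their roles, the calling threshold, the handling of duplicates or a shift for the enzyme's cut, and all of these set which weak peaks are listed and how wide a peak is. Depth is unknown, so no interval of counting error could be given.

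Peaks on 21 chromosomes were merged where they overlapped by at least 1 base. A library called a region if a peak of it overlapped the region by at least 1 base, and its width there was that of its widest peak, in bases. Further peaks of the same library in the region did not add to the width. Regions were assigned to the nearest protein-coding gene of GRCm38.p6 within 100 kb for the gene counts, and the table gives gene bodies without exons. Promoter letters and strands came from the RefSeq promoter table. The 5 library measures were compared between genotypes and between treatments, 4 libraries against 4, by an exact two-sided permutation test (70 arrangements), with Benjamini-Hochberg adjustment over 10 tests. Counts of regions have no test and stand beside the rest of chromosome 8 and all regions. Merging, calls and tests were tested on simulated lists. Named regions were those at Nfat5 and its neighbours, every genotype-only region, the widest by mean peak width of the treatment patterns, the narrower regions with the lowest ratios, and genes of 6 lists. Further narrower regions and per-gene call sums were added after their values were seen. The members and the lists were chosen with earlier results of these data known. Alternatives changed the overlap, the list length, the merging, the window and the libraries used. Python 3.11.15, numpy 2.4.6, pandas 2.3.3 and matplotlib 3.10.9 were used.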

Additional observations from a re-analysis of the deposited data

Results flagged for a closer look

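The window's share of chromosome 8 region calls moved with LPS in opposite directions in the 2 genotypes. In WT it was lower with LPS for both title codes, by -0.767 and -0.485 percentage points (mean -0.626), from 15.7% to 15.0% and from 15.6% to 15.1%. In KO it was higher with LPS for both, by 0.284 and 0.0254 points (mean 0.155), from 14.8% to 15.1% and from 14.8% to 14.8%. The second KO value is close to 0. An untreated library and one with LPS carry the same title code, and whether a code stands for one animal is not stated. The difference between genotypes was not tested.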

How the results depend on the processing

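No adjusted p fell below 0.05 under any alternative run, but with so few libraries none could, so this does not show stability. No alternative changed the sign of the genotype difference in the share of calls, the share of bases, the relative width or the number of peaks. Their size and the separation of the genotypes did depend on the lists: with the widest 27000 peaks the relative width was -0.0145 and the share of bases -0.594 (exact permutation p = 0.143 for each), and the number of peaks -9.50, or -17.5 with equal list lengths. The relative width also overlapped with at least 50% of a region covered (-0.0286) and with 5 Mb either side (-0.0290), at an exact permutation p of 0.0571 each. With at least 50% of a region covered, KO-only regions of untreated cells rose to 10, regions narrower in KO fell to 7, and the LPS differences turned for the share of calls (0.0316) and for the relative log2 width (-0.0133). With the widest 27000 peaks per list, regions with all 4 WT and no KO libraries, and the reverse, fell to 0 and 0 (both ratios 0), those with all 4 untreated and no LPS libraries to 2, WT-only untreated to 5, WT-only with LPS to 6, KO-only with LPS to 3, lost in WT to 9, lost in KO to 9 and narrower in KO to 2. Gains then outnumbered losses, at 5 over all 8 libraries, 15 in WT and 11 in KO. The relative width with LPS was -0.00341 there and -0.00403 with equal list lengths, where KO-only untreated regions were 8. With 5 Mb either side, the KO minus WT median width was 5.88 bases and the WT-only ratio 6.09. The cause of these moves was not tested, except that shorter lists hold fewer regions.

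Leaving out a library lets fewer libraries meet a rule. Regions with all KO and no WT calls then ranged from 1 to 3, all LPS and no untreated from 4 to 7, and all untreated and no LPS from 8 to 14. WT-only untreated ranged from 22 to 52, KO-only untreated from 5 to 18, WT-only with LPS from 19 to 43, and KO-only with LPS from 7 to 29. Gained in WT ranged from 15 to 33, lost in WT from 35 to 81, gained in KO from 8 to 28 and lost in KO from 24 to 55. Regions wider in KO ranged from 0 to 4 and narrower from 12 to 25. The WT-only ratio ranged from 1.66 to 3.52, the KO-only ratio from 0.371 to 2.54, the KO minus WT median width from -14.6 to 2.88 bases, and the relative log2 width with LPS from -0.0116 to 0.0217. With KO minus WT, the relative width kept its sign, from -0.0459 to -0.0323.

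Log2 width deviations of same-numbered libraries correlated with r of 0.055 in WT and 0.051 in KO between untreated and LPS libraries, which share title codes. For the other pairs of groups r ranged from -0.004 to 0.035. For calls r was 0.038 and 0.042, beside 0.011 to 0.037. All were small, but the pairs with a shared code had the highest. Whether a shared title code marks one animal is not stated, and the pairing was not used in the main tests. A replicate block for KO minus WT can only join libraries that share a replicate number, because no title code occurs in both genotypes. With this block the share of bases (-0.615) and the relative width (-0.0397) had an adjusted p of 0.312 by the exact permutation test. Both were at the smallest p that 16 arrangements allow. The block does not account for a title code shared by an untreated library and one with LPS. If such a code marks the same animal, the main genotype tests count each animal more than once, and the correlations above cannot decide this. Without read counts, depth limits cannot be given, and a weak peak below the authors' threshold counts as no call.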
